A study of Mus musculus with 8 samples.

Results

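Atf4, Chac1, Atf3 and Xbp1 are genes of the integrated stress response and the unfolded protein response. They were followed in the tibialis anterior, a muscle of the lower hind leg, after its nerve supply was cut. They were taken by their symbols in the platform annotation. Each of the 4 had 1 probe set with that single symbol, and they are 4 of the 14860 genes measured. The animals were male C57BL/6 mice, with no transgene or drug in the labels, and were 8 weeks old. In each operated mouse the left sciatic nerve was transected, and both tibialis anterior muscles were taken 7 days later. The denervated group holds 4 arrays of muscle on the cut side. The innervated group holds 4 arrays of the opposite muscle, which comes from operated animals and is no sham control.

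The integrated stress response starts when one of several kinases senses amino acid shortage, misfolded protein in the endoplasmic reticulum, viral RNA or heme lack and phosphorylates the initiation factor eIF2. General protein synthesis then slows, while upstream reading frames in the Atf4 mRNA let more ATF4 protein be made. The output of Atf4 is therefore set largely at translation, which an mRNA array does not see. ATF4 is a basic leucine zipper factor that binds, often with a C/EBP partner, to C/EBP-ATF response elements (CARE), and it induces genes for amino acid supply, the factor ATF3 and the glutathione-degrading enzyme CHAC1. XBP1 belongs to the other arm: the endoplasmic reticulum kinase IRE1, encoded by Ern1, removes a short stretch from Xbp1 mRNA and so switches on the active factor. In skeletal muscle ATF4 is known for its role in fasting and immobilisation atrophy, with Gadd45a and Cdkn1a among its muscle targets.

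The promoters of Atf3 and Chac1 are shown because both hold a CARE match, while the denervated level was higher for one gene and lower for the other. They are RefSeq sequences of the build GRCm38.p6, from 250 bases before to 50 bases after the annotated start, read in the direction of the gene. The Atf3 window is chr1:191183284-191183583 on the minus strand, and the Chac1 window is chr2:119350992-119351291 on the plus strand. Capitals mark a CARE match, read as TTGCATCA on the strand shown, and in Atf3 also the core of a cyclic AMP response element, ACGTCA.
Atf3: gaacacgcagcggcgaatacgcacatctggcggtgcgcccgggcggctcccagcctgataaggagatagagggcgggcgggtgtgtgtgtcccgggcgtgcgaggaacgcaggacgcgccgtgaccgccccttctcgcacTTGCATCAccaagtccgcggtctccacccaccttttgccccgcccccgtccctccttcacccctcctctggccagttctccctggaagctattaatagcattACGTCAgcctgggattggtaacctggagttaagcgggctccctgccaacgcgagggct
Chac1: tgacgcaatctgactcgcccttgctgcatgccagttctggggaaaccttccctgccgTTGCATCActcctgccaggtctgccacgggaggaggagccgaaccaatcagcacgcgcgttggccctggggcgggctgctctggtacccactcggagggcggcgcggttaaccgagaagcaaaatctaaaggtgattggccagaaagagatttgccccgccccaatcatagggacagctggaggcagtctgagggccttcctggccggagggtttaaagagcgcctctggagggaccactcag
The CARE motif was searched as TGATGNAA on both strands. The match lies at -110 to -103 in Atf3 and at -193 to -186 in Chac1, counted from the annotated start, and its 8 letters are the same in both. Of 32851 promoter windows of this length, 3.97% hold such a match. The ACGTCA core of Atf3 lies at -8 to -3, and 7.51% of windows hold it on either strand. The windows of Atf4 and Xbp1 held no match to these motifs, to the AP-1 site TGACTCA, or to the endoplasmic reticulum stress elements ERSE and ERSE-II. Over all windows, 5.20% hold the AP-1 site, 0.119% ERSE and 0.0365% ERSE-II. A match describes letters and is no evidence of binding in these muscles.

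Values are log2 intensities as deposited. The 8 arrays had medians between 5.84 and 6.00. The muscle fibre list (Ckm, Acta1 and others) averaged 11.6 to 11.8 on the innervated and 11.0 to 11.5 on the denervated arrays, so fibre transcripts were bright on every array, as the labelled tissue has them. Of the 11 fibre genes measured, 3 fell (27.3%), namely Ckm, Mylpf and Myl1, where 4.89% of all genes fell. In all 4 pairs 10 of them were lower, as were 15.8% of all genes, and the median change was -0.40. Without pairing by replicate number, 2 of them fell, where 5.38% of all genes passed in either direction. The arrays of replicate number 3 stood apart. Both had a narrower spread of values, with an SD over probe sets of 1.36 on innervated 3 and 1.25 on denervated 3. On the other arrays this SD was 1.45 to 1.56. The part of the narrower spread in the values of the 4 genes was not tested. Over all probe sets, denervated 3 had correlations of 0.927 to 0.930 with the rest of its group, in which the other 3 arrays each reached 0.985 or more with their closest array. Lymphocyte markers averaged 7.11 on denervated 3, against 4.98 to 5.09 on the other denervated and 4.90 to 5.29 on the innervated arrays. Ptprc, the pan-leukocyte antigen CD45, read 9.34 there against 5.97 to 6.10 on the other denervated arrays, and the B cell gene Ms4a1 read 7.45 against 3.85 to 3.95. The 4 genes are therefore also given without replicate 3, as is any other result whose call changed there. No label ties equal replicate numbers to the same mouse, so results without the pairing by number are given where they differ.

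**Figure D1:**
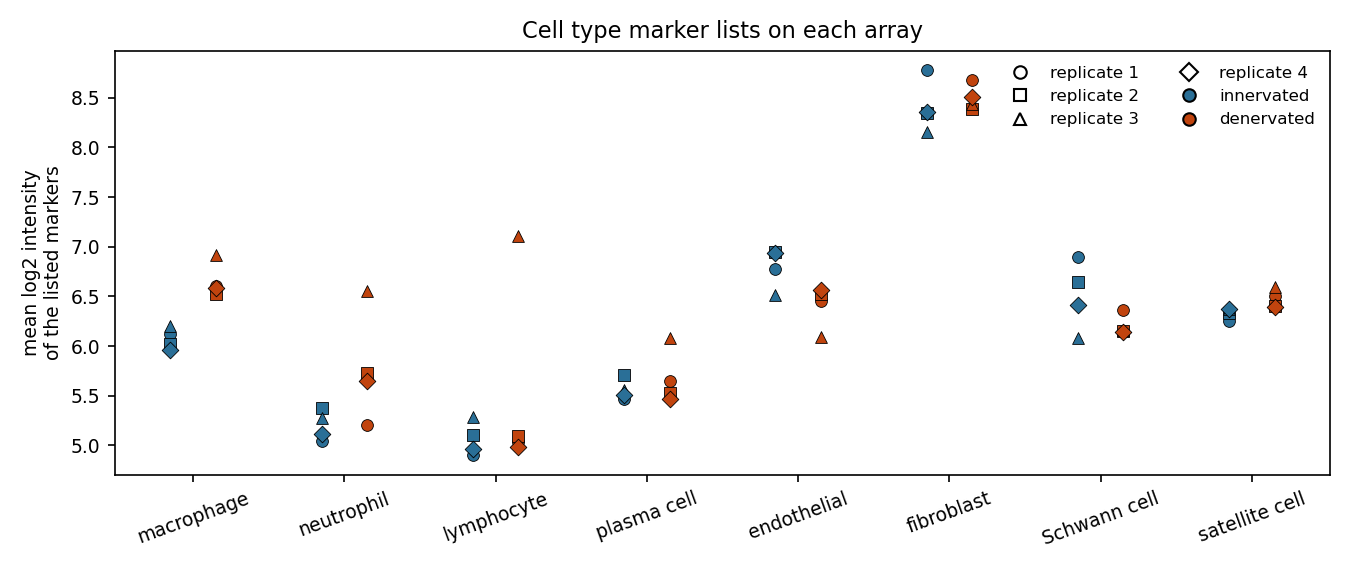
Mean log2 intensity of each cell type marker list (vertical axis) on each of the 8 arrays; colour gives the group and marker shape the replicate number. The denervated array of replicate 3 lies at 7.11 for the lymphocyte list, above the 4.90 to 5.29 of all others.

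Denervation at 7 days split the genes in pairs by direction: Atf4 and Chac1 had lower values and Atf3 and Xbp1 higher values in the denervated muscle. The difference had the same sign in all 4 pairs for each of the 4 genes, as it did for 28.8% of all genes tested, 13.1% being higher and 15.8% lower in all pairs. Each of the 4 had an unadjusted p under 0.05, as did 21.7% of all genes. Only Chac1 passed the threshold, an adjusted p under 0.05 in limma over all genes with the replicate number as a block. Over all genes 8.45% passed, 3.56% as higher and 4.89% as lower. Without replicate 3 all 4 genes passed, where 11.1% of all genes did, and without the block none passed, where 5.38% of all genes did. The group values of each gene overlapped. In whole muscle, fewer cells of a type and less RNA per cell cannot be told apart.

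**Figure D2:**
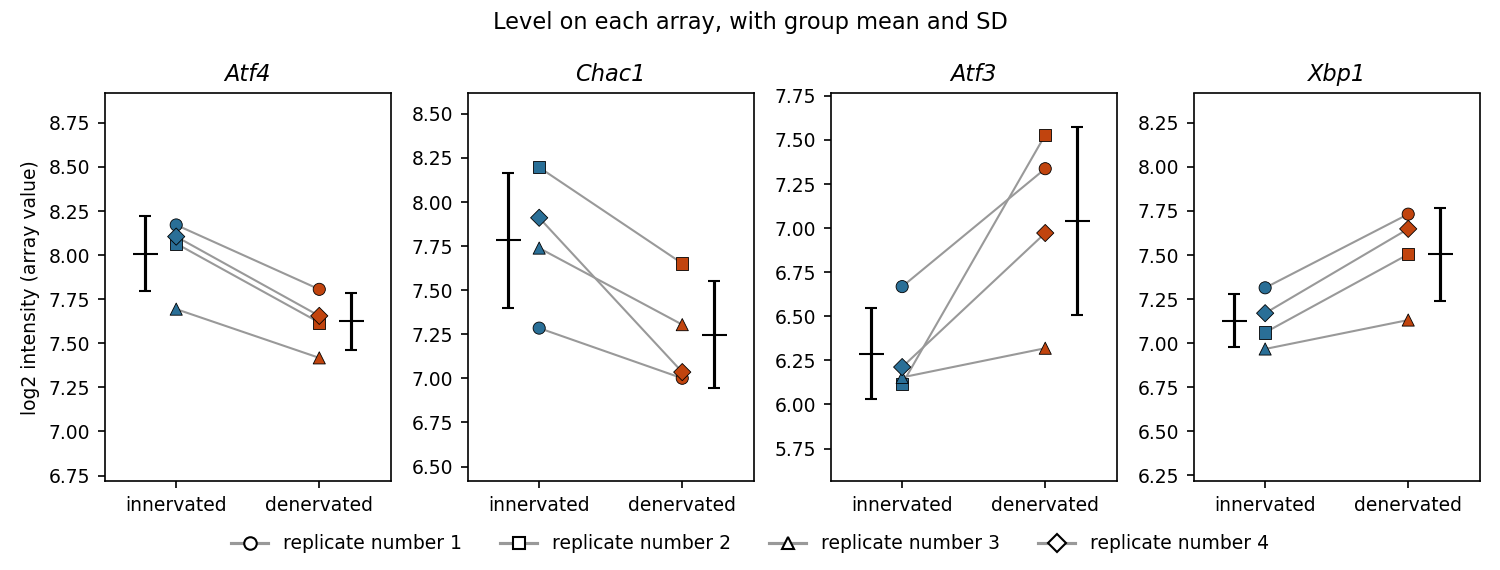
Log2 intensity (vertical axis, the same span in each panel) of the 4 genes on the innervated (blue) and denervated (orange) arrays; lines join equal replicate numbers, and bars show the group mean ± SD (n = 4). Every line falls for Atf4 and Chac1 and climbs for Atf3 and Xbp1, with the flattest line in replicate 3 for Atf4, Atf3 and Xbp1.

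Atf4 encodes the central transcription factor of the integrated stress response. Its probe set read 8.17, 8.07, 7.69 and 8.11 on innervated arrays 1 to 4, and 7.81, 7.62, 7.42 and 7.66 on denervated arrays 1 to 4. Replicate 3 was the lowest in both groups, and the innervated array of replicate 3 lay below the denervated array of replicate 1. The mean was 8.01 ± 0.21 in innervated and 7.62 ± 0.16 in denervated muscle (SD, n = 4), a difference of -0.38 (SE 0.10; 95% interval -0.62 to -0.15), or a 1.31-fold lower level. This missed the threshold (limma adjusted p = 0.0600). The pair differences were -0.37, -0.45, -0.28 and -0.45. The muscle fibre list, with a median change of -0.40, was lower in the same samples, and its part in the Atf4 value was not tested. Without replicate 3 the change was -0.42 and passed (adjusted p = 0.0423), and without the block its adjusted p was 0.175.

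The pathway was read through 9 lists, written with earlier results of these data known, with 147 measured genes. Of these 8 rose and 8 fell, or 10.9%, near the 8.45% of all genes, and 29.3% had an unadjusted p under 0.05 against 21.7% of all genes. Of 14 measured genes for the eIF2 kinases, eIF2, its exchange factor eIF2B and the eIF2 phosphatase, 1 rose (7.14% called) and none fell, with 3 higher and 1 lower at an unadjusted p under 0.05. The median change of the list was 0.07, against -0.01 over all genes. The gene that rose was Impact, whose product restrains activation of the amino acid sensor GCN2. It read 7.75, 7.53, 7.34 and 7.77 on the innervated and 8.72, 8.67, 8.05 and 8.80 on the denervated arrays, with no overlap, a change of 0.96 (SE 0.11, limma adjusted p = 0.00310). Impact also passed without the block (adjusted p = 0.0129), where Eif2s2, the eIF2 beta subunit, passed as well with a change of -0.78 (adjusted p = 0.0675 with the block). The kinase genes themselves gave small values, with Eif2ak3 (PERK, the endoplasmic reticulum sensor) at -0.04 (SE 0.12) and Eif2ak4 (GCN2) at -0.03 (SE 0.11). Eif2ak1 and Eif2ak2 are not analysed here. The inducible phosphatase subunit Ppp1r15a (GADD34), which ends the response, had a change of 0.30 (SE 0.17, adjusted p = 0.389) and passed without replicate 3 at 0.51 (adjusted p = 0.0419). Its constitutive counterpart Ppp1r15b had a change of 0.07.

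Among 14 partners, companions and feedback genes of ATF4, 2 rose and 1 fell (21.4%, against 8.45% of all genes), with a median change of 0.04. At an unadjusted p under 0.05, 4 were higher and 2 lower (42.9%), against 21.7% of all genes. As the list was written with earlier results of these data known, both of its shares depend on that choice of genes. Cebpg, the C/EBP partner with which ATF4 binds CARE sites, fell by 0.58 on the log2 scale (SE 0.14, limma adjusted p = 0.0489). It read 7.93, 8.23, 7.69 and 8.09 on the innervated and 7.68, 7.36, 7.34 and 7.23 on the denervated arrays, so the groups just failed to overlap, as for 12.7% of all genes. The call is marginal, with an adjusted p of 0.0541 without the block and 0.0356 without replicate 3. Ddit3, the stress factor CHOP, had tight innervated values of 8.12 to 8.18 and denervated values of 7.68 to 7.94, which did not overlap. The change was -0.30 (SE 0.10) and did not pass (limma adjusted p = 0.134). Cebpb changed by 0.16, Atf5 by 0.01 and the ATF4 feedback inhibitor Trib3 by -0.02, none past the threshold. The growth-control genes Ddit4 and Sesn2 stood at 0.32 (SE 0.12) and -0.04 (SE 0.11), and the stress hormone Fgf21 at -0.17 (SE 0.10).

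The 2 genes of that list that rose were Gadd45a and Cdkn1a, both of which are also induced by other factors. Gadd45a, a growth arrest gene, went from 7.78 to 8.45 on the innervated arrays to 10.18 to 10.75 on the denervated arrays. Its change was 2.53 (SE 0.16, limma adjusted p = 0.000297). Cdkn1a, the cell cycle inhibitor p21, rose by 2.67 (SE 0.18, adjusted p = 0.000423). Both were higher in 4 of 4 pairs, in the same muscles in which the Atf4 values were lower in 4 of 4 pairs.

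Chac1 encodes a gamma-glutamylcyclotransferase that breaks down glutathione and is a marker of ATF4 activity in many cells. Its probe set read 7.29, 8.20, 7.74 and 7.91 on innervated arrays 1 to 4, and 7.00, 7.65, 7.30 and 7.04 on denervated arrays 1 to 4. Replicate 1 was the lowest and replicate 2 the highest in both groups, so the spread within a group was wide and the groups overlapped. The mean went from 7.78 ± 0.38 to 7.25 ± 0.30 (SD, n = 4). Chac1 fell by 0.53 on the log2 scale (SE 0.13; 95% interval of the change -0.83 to -0.24), or 1.45-fold, and passed (limma adjusted p = 0.0413). The pair differences were -0.28, -0.54, -0.43 and -0.88. The call was lost without the block (adjusted p = 0.213) and without replicates 1, 2 and 4 (0.0943, 0.129 and 0.203). It was kept without replicate 3 (0.0418). The part of the lower fibre genes, among them Mylpf at -0.51 (SE 0.11), in the Chac1 value was not tested.

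Of 11 genes of glutathione synthesis and degradation none passed, with 2 higher and 1 lower at an unadjusted p under 0.05 and a median change of 0.04. Without replicate 3, 2 of them rose, where 11.1% of all genes passed. Chac2, the constitutive relative of Chac1, had a change of -0.22 (SE 0.11, limma adjusted p = 0.300). Ggct, which acts on the dipeptides that glutathione breakdown releases, had a change of -0.12 (SE 0.13).

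Amino acid synthesis and transport genes are the classical targets of ATF4. Of 19 measured, 2 fell and none rose (10.5%), against 8.45% of all genes. The median change was -0.06, with 3 higher and 2 lower at an unadjusted p under 0.05 (26.3%), against 21.7% of all genes. The larger fall was that of Gpt2, the mitochondrial alanine aminotransferase, from 7.66 to 8.08 on the innervated arrays to 6.32 to 6.94 on the denervated arrays. It fell by 1.19 on the log2 scale (SE 0.11, limma adjusted p = 0.00112). Psph, which completes serine synthesis, fell by 0.44 (SE 0.11, adjusted p = 0.0494), and missed the threshold without the block (0.0917) and without replicate 3 (0.0507). The asparagine synthetase gene Asns and the serine synthesis gene Psat1, both standard readouts of ATF4, had changes of -0.16 (SE 0.13) and -0.21 (SE 0.12).

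Of 16 aminoacyl-tRNA synthetases of the cytosol, which load amino acids onto transfer RNA and are often induced with ATF4, 1 rose and none fell (6.25%). The median change was 0.10, with 5 higher and 1 lower at an unadjusted p under 0.05 (37.5%), against 21.7% of all genes. Gars, the glycyl-tRNA synthetase, read 8.56, 8.48, 8.51 and 8.70 on the innervated and 9.12, 9.36, 8.70 and 9.61 on the denervated arrays. Its denervated value in replicate 3 reached only the level of the innervated array of replicate 4. Gars rose by 0.63 (SE 0.14, limma adjusted p = 0.0374), with an adjusted p of 0.0787 without the block. Without replicate 3, 4 synthetase genes rose and 1 fell, where 11.1% of all genes passed.

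CARE matches were counted in the promoter windows of all 9 lists, for the measured genes that had a window. Of all 32851 windows 3.97% hold a match. Of 16 measured synthetase genes 9 had a window, and 4 of these held a match, namely Yars, Gars, Iars and Tars. Among these 4 genes Gars rose. Their changes differed in sign, at -0.42, 0.63, -0.27 and 0.25 in that order. Of 19 measured amino acid genes 15 had a window, and 3 held a match (Slc7a11, Asns and Slc1a4). Of 14 ATF4 companions, all with a window, 4 held one (Trib3, Fgf21, Nupr1 and Vldlr). In the other lists Eif2s3x, Herpud1, Jdp2 and Creb5 held one, and apart from Gars none of the list genes with a match passed. These genes are named for their sequence.

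Atf3 encodes a stress- and injury-induced repressor and activator of the same zipper family, which pairs with Jun proteins. Its probe set read 6.67, 6.12, 6.15 and 6.21 on innervated arrays 1 to 4, and 7.34, 7.53, 6.32 and 6.97 on denervated arrays 1 to 4. The denervated array of replicate 3 lay within the innervated range, while the other 3 denervated arrays lay above it. The mean went from 6.29 ± 0.26 to 7.04 ± 0.53 (SD, n = 4), a difference of 0.75 (SE 0.19; 95% interval 0.31 to 1.19), or 1.68-fold. It missed the threshold by a small margin (limma adjusted p = 0.0519). The pair differences of 0.67, 1.41, 0.17 and 0.76 were the most unequal of the 4 genes. Without replicate 3 the change was 0.95 (adjusted p = 0.0124), without replicate 2 it was 0.53 (0.133), and without the block its adjusted p was 0.128.

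Macrophage markers moved in the same samples as Atf3, which injured nerve and immune cells can also express. Of 12 measured, 5 rose (41.7%), namely Cd68, Mrc1, C1qb, C1qc and Lgals3, where 8.45% of all genes passed. Without the block 4 rose, where 5.38% of all genes passed. Of the 12, 11 were higher and none lower at an unadjusted p under 0.05 (91.7%), against 21.7% of all genes. In all 4 pairs 11 were higher, as were 13.1% of all genes. The list averaged 5.96 to 6.20 on the innervated and 6.52 to 6.92 on the denervated arrays. Schwann cell markers averaged 6.08 to 6.90 and 6.14 to 6.36, with 2 of 8 called, Pmp22 and Mal, both lower. Without the block neither was called. At an unadjusted p under 0.05, 2 of the 8 Schwann cell markers were lower and 2 higher (50.0%). The highest macrophage mean, 6.92, was on denervated 3, where Atf3 was lowest among the denervated arrays. The table holds no detection calls, so no marker can be given as absent. The part of these cells in the Atf3 values was not tested.

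Of 23 AP-1 and immediate early genes, which respond within minutes to signalling and handling, 1 rose and 3 fell (17.4%), against 8.45% of all genes. Their median change was -0.06. At an unadjusted p under 0.05, 4 were higher and 5 lower (39.1%), against 21.7% of all genes. Jun, whose product is a dimer partner of ATF3, read 7.31, 7.27, 7.24 and 7.65 on the innervated and 8.14, 8.11, 7.71 and 8.27 on the denervated arrays. The groups did not overlap, and Jun rose by 0.69 (SE 0.11, limma adjusted p = 0.0111), also without the block (0.0276). It missed the threshold without replicates 1, 2 and 4 (0.0794, 0.0539 and 0.0539). Fos and Egr1 had changes of -0.06 (SE 0.12) and 0.06 (SE 0.11). The genes that fell were the phosphatase Dusp1 at -1.42 (SE 0.16, adjusted p = 0.00245), the orphan nuclear receptor Nr4a1 at -1.06 (SE 0.11) and the endothelial factor Klf2 at -0.44 (SE 0.10). Endothelial markers were lower in the same samples, with 3 of 10 called, or 1 without the block. Their list means were 6.51 to 6.95 against 6.09 to 6.56, and their part in the Klf2 value was not tested.

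Of 9 other ATF and CREB family genes 2 fell and none rose (22.2%), against 8.45% of all genes called. Nfil3, a zipper repressor, fell by 0.97 (SE 0.14, limma adjusted p = 0.00654). Atf7, a relative of ATF2, fell by 0.43 (SE 0.10, adjusted p = 0.0423), with an adjusted p of 0.326 without the block. The median change was -0.07. Of the 9 genes, 3 were lower and none higher at an unadjusted p under 0.05 (33.3%), against 21.7% of all genes.

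**Figure D3:**
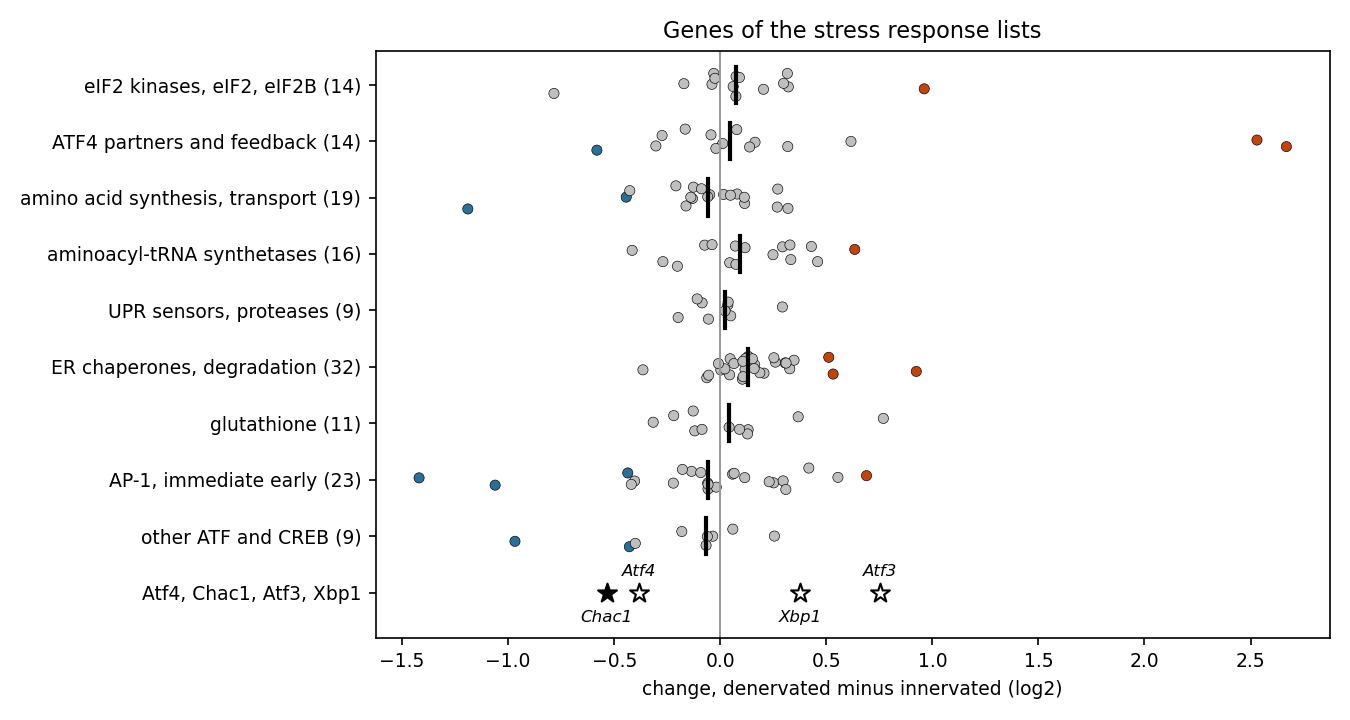
Change in log2 intensity, denervated minus innervated (horizontal axis), of every measured gene of the 9 lists, with the number measured in brackets; orange genes rose, blue genes fell, grey genes did not pass, and black bars are list medians. Stars are the 4 genes, filled where the gene passed: Chac1 at -0.53 and Atf4 at -0.38 lie left of 0, and Xbp1 at 0.38 and Atf3 at 0.75 right of it.

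Xbp1 encodes the factor that enlarges the folding capacity of the endoplasmic reticulum once IRE1 has spliced its mRNA. The single probe set gives the total of the gene and not the spliced share. It read 7.31, 7.06, 6.97 and 7.17 on innervated arrays 1 to 4, and 7.73, 7.50, 7.13 and 7.65 on denervated arrays 1 to 4. Replicate 3 was the lowest and replicate 1 the highest in both groups, and only denervated 3 lay within the innervated range. The mean went from 7.13 ± 0.15 to 7.50 ± 0.27 (SD, n = 4), a difference of 0.38 (SE 0.11; 95% interval 0.13 to 0.63), or 1.30-fold, which missed the threshold (limma adjusted p = 0.0803). The pair differences were 0.42, 0.44, 0.16 and 0.48. Without replicate 3 the change was 0.45 and passed (adjusted p = 0.0342), and without the block its adjusted p was 0.225. Plasma cell markers, which mark a cell type rich in Xbp1, averaged 5.47 to 5.71 on the innervated and 5.47 to 6.08 on the denervated arrays. None of 7 measured was called, by adjusted or unadjusted p, and the highest mean was on denervated 3, the denervated array with the lowest Xbp1 value and with raised lymphocyte markers. The part of these cells in the Xbp1 values was not tested.

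None of 9 sensors, proteases and related factors of the unfolded protein response passed, by adjusted or unadjusted p, and their median change was 0.02. Without replicate 3, 1 of them rose, where 11.1% of all genes passed. Ern1, the gene of the kinase that splices Xbp1, had a change of 0.04 (SE 0.11). Of 32 chaperone and degradation genes of the endoplasmic reticulum, the targets of XBP1 and ATF6, 3 rose and none fell, with 6 higher and 1 lower at an unadjusted p under 0.05. These shares, 9.38% and 21.9%, are close to the 8.45% and 21.7% of all genes. The median change was 0.13, against -0.01 over all genes. The genes that rose were Derl1, Canx and P4hb.

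Derl1, a channel component that returns misfolded proteins to the cytosol, read 7.39, 7.62, 7.16 and 7.65 on the innervated and 8.79, 8.37, 7.72 and 8.64 on the denervated arrays. It rose by 0.92 (SE 0.15, limma adjusted p = 0.0109), with no overlap between groups. The lectin chaperone Canx rose by 0.51 (SE 0.12, adjusted p = 0.0363) and the disulfide isomerase P4hb by 0.53 (SE 0.13, adjusted p = 0.0483), the latter with an adjusted p of 0.283 without the block. Without replicates 1 and 4 none of the list rose, and without replicate 2 only 1 did. Without replicate 3, 5 of the list rose, where 11.1% of all genes passed. The master chaperone Hspa5 (BiP), the most used marker of endoplasmic reticulum stress, had a change of 0.13 (SE 0.11, adjusted p = 0.608). Dnajb9, a typical XBP1 target, had a change of 0.11 (SE 0.17) and Herpud1 one of 0.15 (SE 0.14).

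The calls among the listed genes differed in how far they depended on single arrays. Impact, Gpt2, Gadd45a, Cdkn1a, Dusp1 and Nr4a1 passed under all 10 alternatives tried. Cebpg, Psph, Gars, Canx, P4hb, Klf2 and Atf7 each missed the threshold without replicate 1, without replicate 2 and without replicate 4, at limma adjusted p-values of 0.0783 to 0.214. Derl1 missed it without replicates 1 and 4 (0.0567 and 0.0513) and Nfil3 without replicate 1 (0.0547). After median centring Psph, Gars, Canx, P4hb and Atf7 missed it (0.0517 to 0.0657), and after quantile normalization Cebpg did (0.0970).

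**Figure D4:**
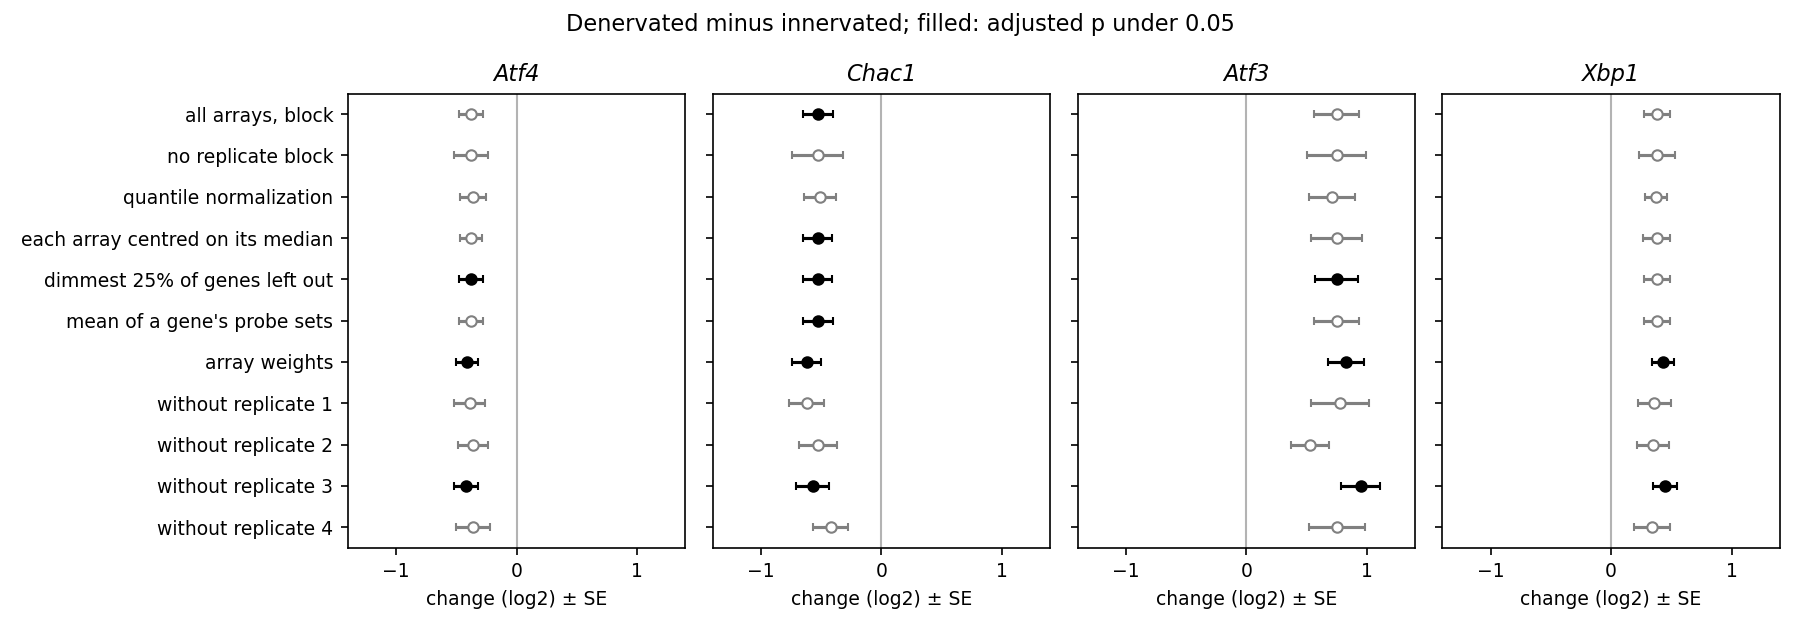
Change in log2 intensity ± SE (horizontal axis) of each gene under the 11 settings named at the left; filled points have an adjusted p under 0.05. No change crosses 0, while the number of filled points per gene differs: Chac1 is filled without replicate 3 and open without replicates 1, 2 and 4.

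The genes with the most similar profile were found as those with the smallest root mean square difference to each gene over the 8 arrays, after centring. They describe likeness only. For Atf4 they were Map3k4, Dlc1 and Klhl8, at 0.0604 to 0.0754, where the root mean square of Atf4 about its own mean was 0.253. For Xbp1 they were Tspyl2, Igbp1 and Sh3pxd2a, at 0.0518 to 0.0544 against 0.265. Chac1 and Atf3 had no neighbour as close: the nearest to Chac1 were Zfp846, Gm5142 and the calcium pump regulator Pln, at 0.151 to 0.179 against 0.400, and the nearest to Atf3 were the innate immune receptor Tlr2, the sorting nexin Snx7 and Nfe2l2, at 0.171 to 0.191 against 0.522. Nfe2l2, which encodes the antioxidant factor NRF2, is also one of the ATF4 companions listed, with a change of 0.62 (SE 0.18, limma adjusted p = 0.0838). Without replicate 3 its change was 0.82 and passed (limma adjusted p = 0.0124).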

How the data were processed

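The authors' deposited table holds 1 log2 intensity per probe set and array, made with GCOS and RMA and genome build mm9, per the submitters' processing notes. Versions and filters: not given in the sources used here. RNA (50 ng) was amplified before labelling, per the labels' protocols, and the values ran from 1.67 to 13.1. The number of arrays limits the precision, and no label gives the animal behind an array, so the p-values reflect only how these samples vary, which may be technical. Of 16755 probe sets, 14996 had 1 gene symbol, 1019 several and 740 none; the brightest per gene left 14860 genes. Names were checked against RefSeq GRCm38.p6, where 14805 IDs matched.

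Group and, as a block, replicate number were fitted to all genes with limma 3.58.1 in R 4.3.3 (two-sided, Benjamini-Hochberg). The block follows the submitters' normalization to the contralateral muscle. After subtraction of group means, same-numbered arrays correlated at 0.23, -0.03, 0.45 and 0.35 for numbers 1 to 4. Arrays of different number were not compared in this way, so these values cannot show whether equal numbers are pairs. On simulated data of 14860 genes the fit recovered 33 of 80 genes changed by 0.5, and all 60 of those changed by 1 and all 60 changed by 2, with 13 unchanged genes among 166 calls. The simulated noise was independent and equally wide on every array, with no replicate effect and no outlying array. It therefore does not show how the fit performs on these arrays.

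The members and all lists were chosen with earlier results of these data known. The 9 pathway lists hold 147 measured genes. Genes named are the 4 members, 25 measured genes set in advance, in each list the called gene with the largest change each way (all where 5 or fewer), and the 3 nearest profiles per member; others complete a count, hold a motif or describe an array, and were picked with their values in view. No set test was run.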

Additional observations from a re-analysis of the deposited data

Results flagged for a closer look

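In 106 groups of 4 arrays (the genes named by rule, in each condition) 7 had 1 array far from the other 3, by a gap to the nearest that exceeded Dixon's 95% critical value relative to the range, while chance alone flags about 1 group in 20. None was a group of Atf4, Chac1, Atf3 or Xbp1. Denervated 3 was the low array for Nfe2l2 (7.99, others 8.99 to 9.06), Dnajb9 (7.29, others 8.06 to 8.21) and Snx7 (5.73, others 6.41 to 6.45). The other arrays were denervated 2 for Asns (5.90, others 5.55 to 5.61), denervated 1 for Fgf21 (6.27, others 6.50 to 6.53), innervated 3 for Ppp1r15b (6.44, others 6.11 to 6.16) and innervated 1 for Hspa5 (9.68, others 9.41 to 9.43).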

How the results depend on the processing

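The changes of Atf4, Chac1, Atf3 and Xbp1 kept their direction under all 10 alternatives, but their calls did not hold. The count of the 4 genes that passed was 1, against 0 with no replicate block, 0 after quantile normalization, 3 once the dimmest 25% of genes were removed, 4 with array weights (where 14.8% of all genes passed) and 0 to 4 with 1 replicate number left out. Chac1 missed the threshold with no block (-0.53), after quantile normalization (-0.51, adjusted p = 0.0614) and in 3 of the 4 fits with a number left out (-0.62 to -0.42 over the 4 fits). With array weights, which gave the arrays of replicate 3 a weight of 0.39, Atf4 (-0.41), Atf3 (0.83) and Xbp1 (0.43) passed. With the dimmest 25% removed Atf4 (-0.38) and Atf3 (0.75) passed. With a number left out the ranges were -0.42 to -0.36 for Atf4, 0.53 to 0.95 for Atf3 and 0.34 to 0.45 for Xbp1. Over all genes 1255 passed, 800 with no block, 2200 with array weights and 347 to 1643 with a number left out. Of the 147 list genes 16 passed, 37 with array weights and 6 to 27 with a number left out. With array weights 6 synthetase genes and 6 chaperone and degradation genes rose, against 1 and 3. Near 0, some changes turned sign: Trib3 to 0.00 and Atf5 to -0.03 with array weights. With a number left out, Trib3 ranged from -0.09 to 0.04, Atf5 from -0.06 to 0.06, Sesn2 from -0.11 to 0.02, Eif2ak3 from -0.14 to 0.01, Eif2ak4 from -0.11 to 0.03, Dnajb9 from -0.03 to 0.31, Fos from -0.15 to 0.01 and Egr1 from -0.01 to 0.15. The cause of these shifts was not tested; leaving out a number also leaves fewer arrays. The table holds no detection values, so a low intensity cannot be told from background.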
